A study of Homo sapiens with 6 samples.

Results

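The myoepithelial contractile genes are 10 genes chosen by symbol for what their proteins do: ACTA2, ACTG2, MYH11, CNN1, TAGLN, CALD1, MYLK, TPM1, TPM2 and MYL9. The deposited count table, which lists 21676 gene symbols, had a row for 9 of the 10. ACTG2 had no row, so its expression was not analysed here. The table covers 6 RNA sequencing libraries of cell line 83, which the submitters call a SACC cell, a name usually given to salivary adenoid cystic carcinoma. There are 3 libraries of cells that overexpress ApoD and 3 control libraries, and both groups are the same cell line. The labels give no vector, clone, selection or time for the overexpression and nothing on what the control cells received. They number the libraries without saying that these came from separate cultures, so p-values measure only the spread between libraries, which may be technical.

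Myoepithelial cells lie between the secretory or ductal cells and the basement membrane of salivary, mammary and sweat glands and squeeze secretion out of them. They contract like smooth muscle: calcium and calmodulin activate myosin light chain kinase, which phosphorylates the regulatory light chain, and myosin then pulls on actin filaments that tropomyosin, caldesmon and calponin coat and regulate. Many of these genes are switched on by serum response factor (SRF) with the coactivators myocardin, MRTFA and MRTFB, at a promoter element called the CArG box. Adenoid cystic carcinoma is known for tumours that hold ductal cells and myoepithelial-like cells side by side.

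RefSeq promoter windows of GRCh38.p14, which run from 250 bases before to 50 bases after a transcription start, were given for 7 of the 10 symbols, in 12 windows. MYH11, TAGLN and MYL9 had no window. Perfect CArG boxes, searched on both strands, were found in windows of 2 of those 7 symbols, ACTG2 and MYLK. Imperfect boxes, such as the stretch ccctatatgg in a window of ACTA2, were not searched for. Of 35116 such windows of all genes, 1.29% held one. The 3 windows below show the member with both a perfect CArG box in a window and a lower level, and the tropomyosin pair. Of that pair TPM2 fell and TPM1 did not pass. Letters are written 5′ to 3′ in the direction of the gene, and capitals mark the CArG box.
MYLK, chr3:123620499-123620798, minus strand: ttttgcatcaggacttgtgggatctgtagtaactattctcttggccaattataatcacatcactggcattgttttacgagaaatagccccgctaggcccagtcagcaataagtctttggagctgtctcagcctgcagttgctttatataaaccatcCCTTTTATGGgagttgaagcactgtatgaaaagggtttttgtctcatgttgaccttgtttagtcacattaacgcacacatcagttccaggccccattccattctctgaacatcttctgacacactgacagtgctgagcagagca
TPM2, chr9:35690007-35690306, minus strand: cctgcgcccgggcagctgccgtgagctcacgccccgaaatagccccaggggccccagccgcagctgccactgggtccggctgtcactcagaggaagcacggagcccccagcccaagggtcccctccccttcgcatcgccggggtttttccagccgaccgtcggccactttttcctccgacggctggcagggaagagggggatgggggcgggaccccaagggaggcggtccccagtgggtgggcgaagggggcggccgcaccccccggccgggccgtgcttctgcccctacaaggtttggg
TPM1, chr15:63048239-63048538, plus strand: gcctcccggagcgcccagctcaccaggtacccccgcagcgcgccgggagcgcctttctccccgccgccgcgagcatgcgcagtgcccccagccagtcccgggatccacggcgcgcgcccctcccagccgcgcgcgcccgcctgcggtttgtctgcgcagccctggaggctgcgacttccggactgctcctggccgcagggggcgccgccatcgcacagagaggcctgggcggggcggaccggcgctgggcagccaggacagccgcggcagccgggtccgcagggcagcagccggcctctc
In MYLK the box CCTTTTATGG starts 94 bases before the start. The TPM2 and TPM1 windows hold no perfect box and are rich in G and C, at 72.3% and 78.3% against 43.7% in MYLK. The hexamer CATTCC, called MCAT, was found on either strand in windows of 3 members, ACTA2, CALD1 and MYLK, and in 14.0% of all windows. The counts do not show which start a transcript used, and a letter match is a description of the window.

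The libraries held 37542568 to 40416964 counts. APOD had 628, 528 and 625 counts with ApoD overexpression and 9, 8 and 2 counts in controls. Of 14629 genes tested, 48.8% passed an adjusted p of 0.05, 24.2% as higher and 24.6% as lower with ApoD overexpression. The median change over every tested gene was −0.02 on the log2 scale. It was −0.13 when libraries were scaled by their totals instead of TMM (the trimmed mean of M-values), and changes below are relative to the TMM scale unless another is named. Changes went with abundance: 29.1% of tested genes with a mean count under 100 were lower, 32.4% of those from 100 to 1000 and 17.8% of those with 1000 or more.

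With ApoD overexpression TPM2, MYLK, ACTA2 and MYL9 fell, to 25.9%, 29.4%, 48.5% and 33.6% of their fitted control level. The fall of MYL9 rested on few counts and passed narrowly. No member rose, and TPM1, CALD1 and TAGLN did not pass. The remaining 2 members with a row, MYH11 and CNN1, had too few counts to enter the test. Of 7 tested members 4 were lower and 0 higher by edgeR, where 24.6% of all tested genes were lower and 24.2% higher. That count is a description and not support, since MYL9 entered the test only through the controls and passed in 2 of 13 alternatives, while ACTA2, TPM2 and MYLK passed in every alternative that tested them. At an unadjusted p under 0.05, 0 were higher by edgeR, by DESeq2 or by limma on FPKM. The same 4 members had groups that did not overlap in CPM (counts scaled to a TMM-sized library of 1000000), which was true of 58.7% of all tested genes. In bulk RNA, fewer cells with these transcripts and less of them per cell cannot be told apart.

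**Figure D1:**
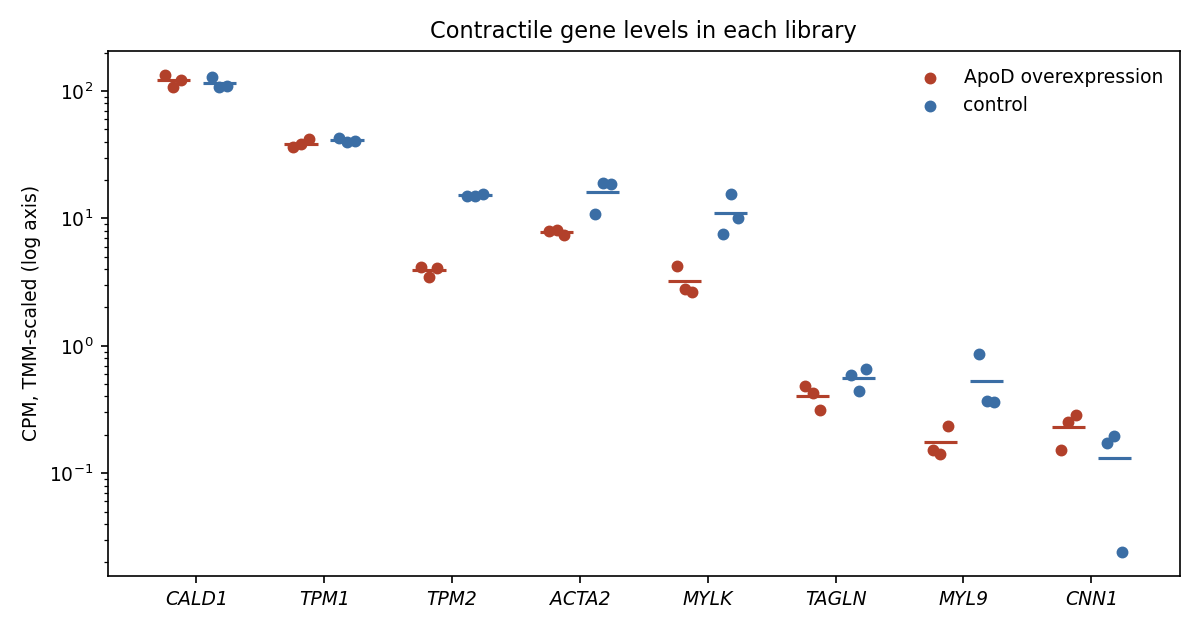
Level of 8 contractile genes in each library, in TMM-scaled CPM on a log axis. Points are libraries and lines are means of 3. TPM2, ACTA2, MYLK and MYL9 lie lower in all 3 ApoD overexpression libraries than in any control, and CALD1, TPM1, TAGLN and CNN1 overlap. MYH11 had 0 counts in 4 libraries and is not drawn.

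Levels of different genes were compared per length, in the authors' FPKM (fragments per kilobase of gene), which is scaled by library totals. CALD1 was the highest member, at 21.5 ± 2.70 FPKM with ApoD overexpression and 22.1 ± 1.89 FPKM in controls (SD, n = 3). With ApoD overexpression TPM1 came next at 5.87 ± 0.406 FPKM, then ACTA2 at 4.16 ± 0.201, TPM2 at 1.69 ± 0.192 and MYLK at 0.275 ± 0.0806 FPKM, and the libraries of these neighbours did not overlap. In controls ACTA2 at 9.33 ± 2.74 FPKM, TPM2 at 7.08 ± 0.321 and TPM1 at 6.75 ± 0.199 followed, and as their ranges overlapped they were not ordered. MYLK averaged 1.01 ± 0.368 FPKM in controls. TAGLN, CNN1, MYL9 and MYH11 were at or below 0.319 FPKM in every library of either group. The levels of the 9 members summed to 33.7 ± 2.92 FPKM with ApoD overexpression and 46.7 ± 1.31 FPKM in controls. CALD1 made up 61.1% to 66.2% of that sum with ApoD overexpression and 44.3% to 53.4% in controls.

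ACTA2 encodes smooth muscle alpha-actin, the usual stain for myoepithelium. It had 8.0, 8.11 and 7.41 CPM with ApoD overexpression, from 315, 288 and 284 counts. In controls it had 10.9, 18.9 and 18.7 CPM, from 440, 773 and 774 counts. The overexpression libraries lay close together and below every control, and control replicate 1 lay nearest to them. The log2 fold change was −1.04 ± 0.19 (SE; edgeR adjusted p = 0.000916). It was −1.25 without control replicate 1 and −0.91 without control replicate 2 or 3. ACTA2 took 0.113% ± 0.0120 of the FPKM of 5 actin genes with ApoD overexpression and 0.339% ± 0.127 in controls (SD, n = 3). Of the 2972 distinct windows of 50 bases in its GENCODE 29 transcripts, 0.875% also occurred in a transcript of another gene. At that length sequence shared with other actins is therefore small, though neither the read length nor the aligner is given in the sources used here.

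TPM1 and TPM2 encode tropomyosins, coiled-coil dimers that lie along the actin filament and set which myosins and regulators can bind it. TPM2 had 4.19, 3.46 and 4.10 CPM with ApoD overexpression, against 15.0, 14.9 and 15.6 CPM in controls. The gap between groups was far wider than the spread within either. Its log2 fold change was −1.95 ± 0.15 (SE; edgeR adjusted p = 2.16e-06). TPM1 had 36.1, 38.2 and 41.8 CPM with ApoD overexpression, against 42.8, 39.9 and 40.4 CPM in controls. These overlapped, and its log2 fold change of −0.08 ± 0.10 did not pass (edgeR adjusted p = 0.508). The ratio of TPM2 to TPM1 in FPKM, in which library scaling cancels, was 0.329, 0.257 and 0.278 with ApoD overexpression, against 0.996, 1.06 and 1.10 in controls. No ratio of one group reached the other (exact permutation test, two-sided p = 0.1, the smallest that 3 against 3 libraries allow). None of the 50-base windows of TPM2 transcripts occurred in another gene's transcripts, and 1.03% of those of TPM1 did.

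The cytoskeletal tropomyosins TPM3 and TPM4 were far more abundant per length. TPM4 averaged 94.2 FPKM with ApoD overexpression and 102 FPKM in controls, and TPM3 averaged 63.0 FPKM with ApoD overexpression and 47.7 FPKM in controls. On the count scale TPM3 rose, with a log2 fold change of 0.52 ± 0.10 (edgeR adjusted p = 0.000944), and TPM4 had a log2 fold change of −0.0038 ± 0.08. The 4 tropomyosins together came to 165 ± 2.44 FPKM with ApoD overexpression and 164 ± 1.05 FPKM in controls. TPM2 held 1.02% ± 0.131 of that total with ApoD overexpression and 4.32% ± 0.198 in controls. TPM3 held 38.2% ± 1.49 with ApoD overexpression and 29.1% ± 1.997 in controls.

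**Figure D2:**
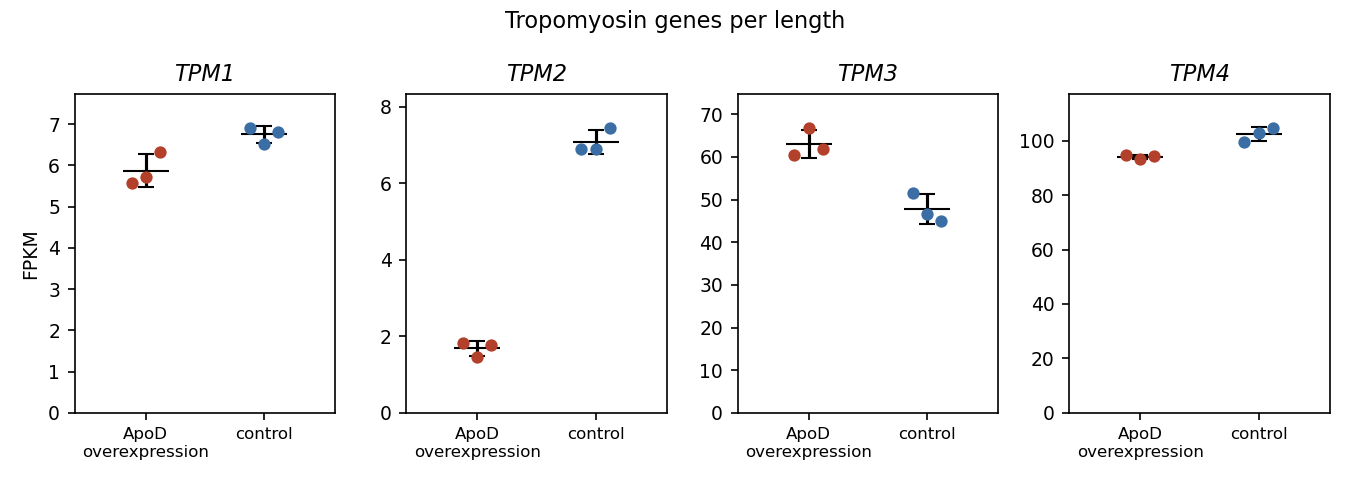
FPKM of the 4 tropomyosin genes in each library, each panel on its own axis from 0. Points are libraries, and the bar and whiskers are mean and SD of 3. TPM2 averaged 1.69 FPKM with ApoD overexpression and 7.08 FPKM in controls, while TPM3 averaged 63.0 FPKM with ApoD overexpression and 47.7 FPKM in controls; FPKM uses library totals, on which TPM1 does not overlap although it does in TMM-scaled CPM.

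MYLK encodes the calmodulin-dependent kinase that starts smooth muscle contraction, and it is the member with a CArG box in the window printed above. It had 4.27, 2.79 and 2.64 CPM with ApoD overexpression, from 168, 99 and 101 counts. In controls it had 7.56, 15.4 and 10.02 CPM, from 305, 631 and 415 counts. The groups did not overlap, and control replicate 1 was again the control nearest to the overexpression libraries. The log2 fold change was −1.76 ± 0.27 (SE; edgeR adjusted p = 0.000251), with a range of −1.99 to −1.44 when 1 library was left out. The antisense gene MYLK-AS1 had 73, 88 and 99 counts with ApoD overexpression and 131, 112 and 135 in controls and did not pass (edgeR adjusted p = 0.173). MYLK-AS2 had 0 counts in all 3 overexpression libraries and 1, 8 and 8 in controls, which is at least 5.23-fold lower at a floor of 3 counts over the group. The strand setting of the counting is not given in the sources used here, so reads of MYLK and of an overlapping antisense gene cannot be told apart.

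MYL9 encodes the smooth muscle regulatory light chain that this kinase phosphorylates. It had 6, 5 and 9 counts with ApoD overexpression and 35, 15 and 15 counts in controls, so it entered the test through the controls. The ratio of its summed levels was 0.334, with a 95% counting interval of 0.191 to 0.558 that covers counting error only. Its log2 fold change was −1.57 ± 0.60 (SE; edgeR adjusted p = 0.0457), and −1.03 without control replicate 1. The call was lost whichever library was left out, at adjusted p of 0.0567 to 0.249, and by the DESeq2 Wald test (0.0867). It also fell away with each library's abundance trend removed, where the log2 fold change was −0.81 (edgeR adjusted p = 0.309). Tested genes with a mean count under 100 had a median log2 change of −0.60. MYH11, the smooth muscle myosin heavy chain, had 0, 0 and 5 counts with ApoD overexpression and 0, 2 and 0 in controls, which gives a ratio of 2.71 (95% interval for counting error alone, 0.444 to 28.5). It was not detectable as different at this depth (edgeR without the low-count filter, adjusted p = 0.609).

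The remaining members bind actin and hold back or organise contraction. CALD1 encodes caldesmon, which blocks myosin from actin until calcium rises and is also made in a shorter form in non-muscle cells. It had 135, 108 and 123 CPM with ApoD overexpression, against 129, 108 and 110 CPM in controls. The groups overlapped fully and the log2 fold change of 0.07 ± 0.11 did not pass (edgeR adjusted p = 0.613). Counts per gene do not separate its smooth muscle form from its short form. TAGLN, which encodes the actin-bundling protein transgelin or SM22, had 19, 15 and 12 counts with ApoD overexpression and 24, 18 and 27 in controls. Its log2 fold change of −0.47 ± 0.47 did not pass (edgeR adjusted p = 0.439), and it was 0.23 with the abundance trend removed. CNN1, which encodes calponin 1, an inhibitor of myosin's ATPase activity, had 6, 9 and 11 counts with ApoD overexpression and 7, 8 and 1 in controls. Its ratio was 1.76 (95% interval for counting error alone, 0.910 to 3.51), and it did not pass without the filter (edgeR adjusted p = 0.535).

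**Figure D3:**
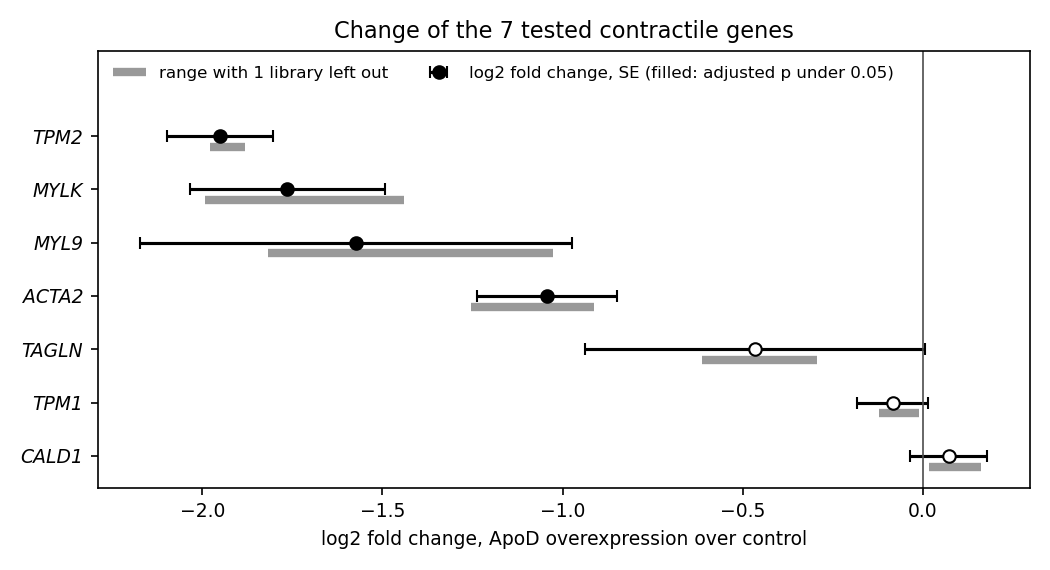
Log2 fold change, ApoD overexpression over control, of the 7 tested members with its SE, filled where the edgeR adjusted p was under 0.05. The grey bar is the range when each library was left out in turn. TPM2 has the narrowest range of the 4 that fell, −1.98 to −1.88, and MYL9 the widest, −1.82 to −1.03.

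The close relatives of the members are the non-muscle forms of these proteins and some forms of cardiac and skeletal muscle, and 16 of 19 listed were tested. Of these 7 rose and 4 fell, with a median log2 fold change of 0.10, where 24.2% of all tested genes rose and 24.6% fell. ACTB, cytoplasmic beta-actin, rose to 5807 ± 484 CPM with ApoD overexpression, against 3957 ± 589 CPM in controls (SD, n = 3). Its rise was 0.55 ± 0.11 (SE) on the log2 scale, at an edgeR adjusted p of 0.00179. ACTG1, MYH9 (the main non-muscle myosin heavy chain), CNN2 and TAGLN2 rose by 0.28 to 0.36 on the log2 scale. Scaling by library totals left 4 higher and 4 lower, and removing the abundance trend left 3 higher and 4 lower. ACTG1, MYH9 and CNN2 lost their calls under both scalings and TAGLN2 under the second, while ACTB, TPM3 and MYLK2 passed under each. When 1 library was left out 4 relatives rose without ApoD overexpression replicate 2, without its replicate 3 or without control replicate 2. Only 2 fell without ApoD overexpression replicate 1 or without control replicate 2. The relatives ACTB, ACTG1, TPM3, TPM4, CNN2, TAGLN2, MYH9, MYL12A and MYL12B were named after their values were seen.

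Falls among the relatives were in MYH14, ACTC1, CNN3 and MYL12A. MYH14, a non-muscle myosin heavy chain of epithelia, had 166, 161 and 143 counts with ApoD overexpression and 1127, 1724 and 1287 in controls (log2 fold change −3.02 ± 0.17 SE; edgeR adjusted p = 2.83e-07). CNN3, acidic calponin, fell by 0.87 ± 0.14 on the log2 scale (edgeR adjusted p = 0.000302). ACTC1, cardiac alpha-actin, had only 1, 5 and 0 counts with ApoD overexpression and 17, 25 and 12 in controls, so it entered the test through the controls. Its log2 fold change of −2.97 became −4.80 without ApoD overexpression replicate 2 and −2.37 without replicate 3. It lost its call without ApoD overexpression replicate 1 (edgeR adjusted p = 0.0516) or control replicate 2 (0.0616), and with the abundance trend removed (0.0733). MYL12A and MYL12B encode the non-muscle regulatory light chains. MYL12A fell by 0.34 ± 0.10 (edgeR adjusted p = 0.0129), and its adjusted p was 0.0816 to 0.0897 without ApoD overexpression replicate 1 or 3 or control replicate 3 and 0.0553 without control replicate 2. MYL12B had a log2 fold change of −0.0043 ± 0.09. MYL9 was 0.0211% ± 0.00685 of the FPKM of these 3 light chains with ApoD overexpression and 0.0584% ± 0.0326 in controls.

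MYLK2, the kinase of skeletal muscle, moved the other way from MYLK. It had 35, 30 and 44 counts with ApoD overexpression and 3, 0 and 2 in controls, so it entered the test through the overexpression libraries. Its log2 fold change was 4.46 ± 0.70 (SE, edgeR adjusted p = 0.000296). It was 5.14 without control replicate 1 and 3.91 without control replicate 2. Per length MYLK and MYLK2 were both low, at 0.275 and 0.330 FPKM with ApoD overexpression and 1.01 and 0.0152 FPKM in controls. Of the FPKM of 4 such kinases MYLK held 32.9% ± 7.74 with ApoD overexpression and 78.2% ± 6.39 in controls.

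**Figure D4:**
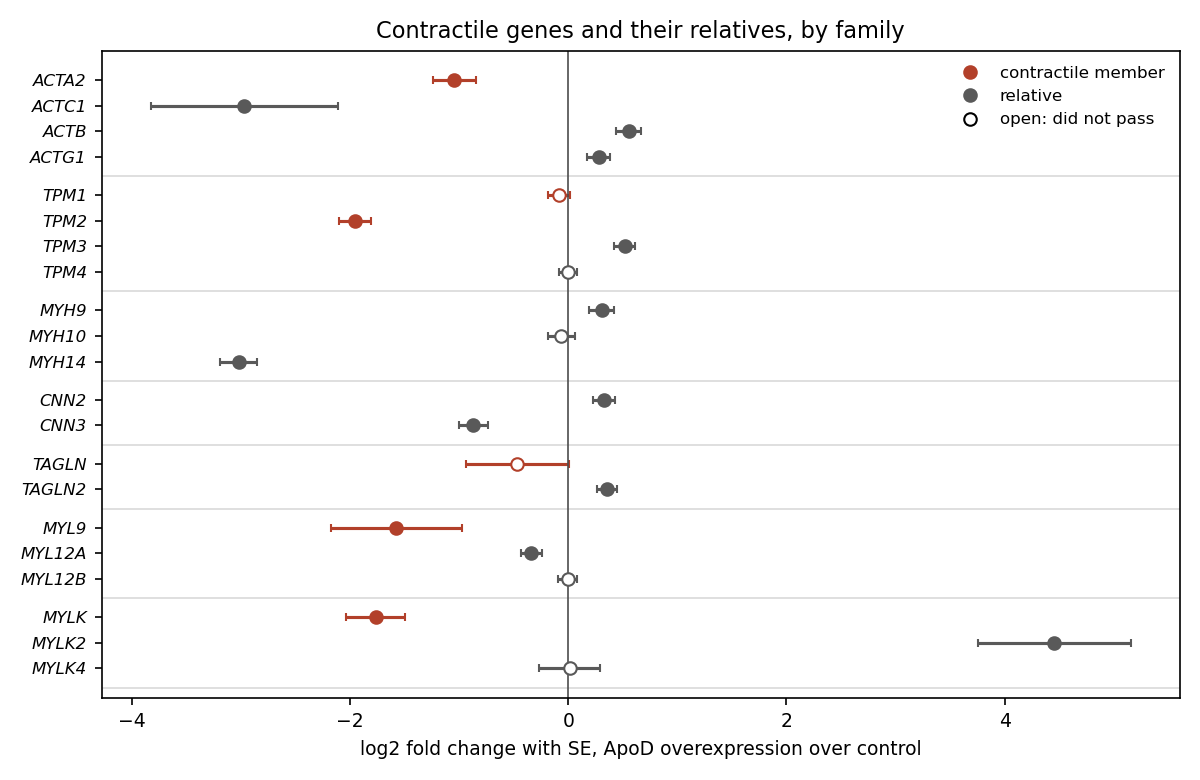
Log2 fold change with SE, ApoD overexpression over control, of tested members (red) and relatives (grey), grouped by family, filled where the edgeR adjusted p was under 0.05. ACTA2, TPM2, MYLK and MYL9 lie left of 0, and ACTB at 0.55, TPM3 at 0.52 and MYLK2 at 4.46 lie to the right of it. The grey points at 0.28 to 0.36 lost their call under at least 1 other scaling.

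SRF and its partners were listed because SRF drives most of the members in smooth muscle. Of 6 tested, 2 rose and 0 fell, with a median log2 fold change of −0.02, where 24.2% of all tested genes rose and 24.6% fell. At an unadjusted p under 0.05 edgeR had 1 lower, ELK4, a relative of ELK1; it passed with library totals, with the abundance trend removed, and without ApoD overexpression replicate 1 or control replicate 1. DESeq2 and limma on FPKM called 0 lower at the adjusted threshold. SRF had 2368, 2618 and 2594 counts with ApoD overexpression and 2223, 1992 and 1866 in controls. It rose by 0.44 ± 0.11 on the log2 scale (edgeR adjusted p = 0.00593). The transcript level of SRF does not measure its activity, and its part in the change of the members was not tested. ELK1, an ETS factor that binds beside SRF at growth-response genes, rose by 0.55 ± 0.13 (edgeR adjusted p = 0.00357). MRTFA at −0.13 ± 0.12 and MRTFB at −0.08 ± 0.10 on the log2 scale did not pass (edgeR adjusted p = 0.392 and 0.560). MYOCD, which encodes myocardin, and ABRA had no row.

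Other cytoskeletal genes known as SRF and MRTF targets were mixed. Of 17 tested, 5 rose and 8 fell, with a median log2 fold change of −0.31, where 24.2% of all tested genes rose and 24.6% fell. With library totals 4 of the list rose and 10 fell. PDLIM7, a LIM protein of actin bundles, rose to 199 ± 11.9 CPM with ApoD overexpression, against 109 ± 3.31 CPM in controls (SD, n = 3). The actin cross-linker FLNA rose to 1432 ± 142 CPM with ApoD overexpression, against 844 ± 180 CPM in controls, by 0.76 ± 0.14 on the log2 scale (edgeR adjusted p = 0.000724). SYNPO2, a smooth muscle actin-binding protein, had 2, 7 and 10 counts with ApoD overexpression and 26, 32 and 38 in controls. It entered the test through the controls, with a log2 fold change of −2.19 ± 0.58 (SE, edgeR adjusted p = 0.00823). It lost its call with the abundance trend removed (edgeR adjusted p = 0.0670).

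Of 18 tested genes that control light chain phosphorylation, 4 rose, 4 fell and 10 did not pass, with a median log2 fold change of 0.03. These shares lie near those of all tested genes, of which 24.2% rose and 24.6% fell. PPP1R14C and PPP1R14B encode inhibitors of protein phosphatase 1, and PPP1R12B a targeting subunit of the myosin phosphatase. PPP1R14C fell by 0.89 ± 0.13 and PPP1R12B by 0.61 ± 0.15 on the log2 scale (edgeR adjusted p = 0.000175 and 0.00568). PPP1R14B rose by 0.56 ± 0.11 (edgeR adjusted p = 0.00131), and ARHGEF12, a guanine nucleotide exchange factor, fell by 0.51 ± 0.12 (edgeR adjusted p = 0.00313). With the abundance trend removed 4 of the list rose and 6 fell.

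Receptors and channels that trigger contraction were mostly scarce. Of 16 listed, 12 had a row and 8 were tested. Of these 8, 1 rose and 2 fell, where 24.2% of all tested genes rose and 24.6% fell. OXTR, the oxytocin receptor through which mammary myoepithelium contracts, had 35, 41 and 59 counts with ApoD overexpression and 52, 44 and 32 in controls. The groups overlapped and it did not pass (edgeR adjusted p = 0.698; it was picked out after its values were seen). Of the G proteins that pass such signals on, GNAQ fell by 0.76 ± 0.11 and GNA11 rose by 0.48 ± 0.10 (edgeR adjusted p = 0.000151 and 0.00175). Phospholipase PLCB1 fell by 0.66 ± 0.20 (edgeR adjusted p = 0.0156) and lost its call with the abundance trend removed (0.102), without ApoD overexpression replicate 2 (0.0505) or without control replicate 2 (0.0844).

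The name of the gene group was checked against markers of the cell type. Basal and myoepithelial markers were present: 12 of 15 had a row and all 12 were tested, among them KRT5, KRT14 and TP63, whereas SOX10, S100B and GFAP had none. Among the contractile genes MYH11, CNN1, TAGLN and MYL9 were scarce in both groups, below 1 CPM in every library. The other members with a row were higher. TPM2 had 3.46 to 15.6 CPM, MYLK 2.64 to 15.4 CPM and ACTA2 7.41 to 18.9 CPM over both groups. TPM1 had 36.1 to 42.8 CPM and CALD1 108 to 135 CPM. Of the 12 basal markers 3 rose and 8 fell, with a median log2 fold change of −0.39. For this list and the luminal one below, the shares over all tested genes were 24.2% higher and 24.6% lower. NGFR, the low-affinity neurotrophin receptor, had 115, 15 and 45 counts with ApoD overexpression and 773, 1556 and 1856 in controls. The log2 fold change of NGFR was −4.47 ± 0.47 (SE, edgeR adjusted p = 1.80e-05). It was −5.37 without ApoD overexpression replicate 1 and −4.06 without ApoD overexpression replicate 2. KRT14 had a log2 fold change of −1.75 ± 0.21 and TP63 of −1.05 ± 0.13 (edgeR adjusted p = 4.93e-05 and 5.05e-05). KRT5 at −0.25 ± 0.10 did not pass (edgeR adjusted p = 0.0570). DST, a basal linker protein, fell by 1.02 ± 0.17 (edgeR adjusted p = 0.000478). Vimentin, encoded by VIM and picked out after its value was seen, rose to 894 ± 45.8 CPM with ApoD overexpression, against 497 ± 17.4 CPM in controls. The summed level of the basal list was 4127 to 4302 CPM with ApoD overexpression and 3845 to 4376 CPM in controls, so the sums overlapped. Besides VIM, the abundant COL17A1 and LAMB3 rose, to means of 820 and 556 CPM with ApoD overexpression, against 541 and 443 CPM in controls. The basal sums therefore do not show the 8 falls. Luminal duct markers fell in 7 of 10 tested and rose in 1. Their median log2 fold change was −1.38, against −1.04 for the tested contractile members. Among those that fell, ELF3 had a log2 fold change of −2.79 and KRT19 of −2.46. The luminal sums also overlapped, at 3062 to 3523 CPM with ApoD overexpression and 2726 to 3645 CPM in controls. Most of each sum came from KRT8, KRT18 and KRT7, of which KRT7 rose and the others did not pass, so the sums do not show the falls.

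Several other cell types make the same contractile proteins, and their markers were counted. Fibroblast markers summed to 10.02 to 13.8 CPM with ApoD overexpression and 27.1 to 32.7 CPM in controls, most of it from COL1A1. Of 8 fibroblast markers with a row 2 were tested and both fell, COL1A1 by 1.21 ± 0.15 and COL3A1 by 4.52 ± 0.48 on the log2 scale. COL3A1 had 6, 4 and 4 counts with ApoD overexpression and 161, 128 and 67 in controls, and entered the test through the controls. The defining genes DCN and LUM had 1 count in each group. Markers of vascular smooth muscle and pericytes summed to 65.8 to 79.6 CPM with ApoD overexpression and 76.1 to 106 CPM in controls. Of 6 tested, ABCC9 rose, DES and CSPG4 fell, and the other 3 did not pass. DES, with 7, 30 and 3 counts with ApoD overexpression and 46, 84 and 100 in controls, entered the test through the controls. Striated muscle markers summed to 32.9 to 38.2 CPM with ApoD overexpression and 63.0 to 79.9 CPM in controls. Of 3 tested TNNT1 and TNNI2 fell, and TNNT1 supplied most of the sum. Beside the counts of these lists, 24.2% of all tested genes rose and 24.6% fell. The part of these cell types or of their genes in the lower ACTA2, TPM2, MYLK and MYL9 was not tested.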

How the data were processed

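The authors deposited whole-number counts per gene symbol for 6 libraries, per the file headers, made with a SMARTER mRNA-Seq kit, per the labels' protocols. No aligner, counting program, strand setting or genome build is given in the sources used here. The authors also deposited FPKM values, per the file headers; each of the 108650 values above 0 equals the count scaled by the column total and a gene length, within a relative tolerance of 1e-06. Columns were matched by the library names in the labels.

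Counts were tested with edgeR 4.0.16 (R 4.3.3; quasi-likelihood F test, TMM, filterByExpr with a minimum count of 10, 14629 genes, Benjamini-Hochberg over all of them, two-sided, threshold 0.05). SEs come from the F statistic. CPM are counts per 1000000 of the TMM-scaled library. The test was checked on simulated data in which far fewer genes changed than passed here and no trend with abundance was set. That check does not cover the scaling of these libraries. Counting intervals are 95% exact intervals from SciPy 1.17.1 and cover counting error only.

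The members, the companion and marker lists and the tests were chosen with earlier results of these data known. The text names all 10 members, SRF, MRTFA, MRTFB, MYOCD and APOD, and up to 4 called genes of each other list by size of change; a part of these is given. The closest relative by protein identity was not used here.

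Alternatives were DESeq2 size factors, library totals, loess offsets against the trend with abundance in each library, the DESeq2 1.42.0 Wald test, no filter, the replicate number as a block, each library left out, and limma 3.58.1 on log2(FPKM + 1) or log2(FPKM + 0.1), for genes of at least 1 FPKM in 3 libraries or unfiltered.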

Additional observations from a re-analysis of the deposited data

How the results depend on the processing

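Of the alternatives run, TPM2 and ACTA2 passed as lower in all 15 and MYLK in all 13 that tested it, and no member was called higher in any. MYL9 passed in 2 of 13, with adjusted p of 0.0348 to 0.309. The count of 4 members called lower was 2 on filtered FPKM with either pseudocount, where only 4 members were tested, and 3 when any library was left out. Same-numbered libraries did not deviate together over all tested genes (correlations −0.115, −0.00573 and −0.0391). A pairing that touches few genes would not show in these correlations. With the replicate number as a block 3 members were lower, with MYL9 at an adjusted p of 0.0958.

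Some log2 fold changes that did not pass changed sign. TAGLN was 0.23 with the abundance trend removed. CALD1 was −0.044 with library totals, −0.10 with the trend removed and −0.046, −0.048 and −0.046 on FPKM. With DESeq2 size factors, by DESeq2 and without the filter TPM4 was 0.0011, 0.0089 and 0.019 and MYL12B was 0.0017, 0.0094 and 0.020. With 1 library left out TPM4 ran from −0.017 to 0.029, MYL12B from −0.065 to 0.052 and MRTFA from −0.20 to 0.0099. With the trend removed TPM4 passed as lower, at −0.21 (adjusted p = 0.0391). The causes were not tested. Depth limits MYH11, CNN1, TAGLN and MYL9, which had at most 35 counts in any library.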
